A study of Homo sapiens with 24 samples.

Results

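The sirtuins and the genes around their cosubstrate were followed as 10 genes: the 7 sirtuin deacylases SIRT1 to SIRT7, the NAD-making enzymes NAMPT and NMNAT1, and the NAD-consuming poly(ADP-ribose) polymerase PARP1. They were chosen by symbol among the 60617 genes of the count table, and all 10 were found there under 1 Ensembl identifier each. The cells were MDA686TU, a malignant head and neck squamous cell carcinoma line and thus a single genetic background. They were left untreated (control) or treated for 24 h with 40 µM EGCG, with 15 µM resveratrol, or with both agents at these doses (combination), and 6 libraries were made in each group. EGCG, the main catechin of green tea, was dissolved in water, and resveratrol, a stilbene found in grapes, in DMSO. Whether the control received DMSO is not given in the sources used here, so solvent and resveratrol cannot be told apart. The labels call the libraries replicates without saying that they came from separate cultures, so p-values measure the spread between these libraries, which may be technical.

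Sirtuins remove acetyl and other acyl groups from proteins and split NAD in the process, so each needs NAD to work. SIRT1, SIRT6 and SIRT7 are mainly nuclear, SIRT2 is mainly cytosolic, and SIRT3, SIRT4 and SIRT5 are mitochondrial. The split releases nicotinamide. NAMPT turns nicotinamide into nicotinamide mononucleotide, the rate-limiting step of the salvage route, and NMNAT1 joins that mononucleotide to ATP to give NAD in the nucleus. PARP1 draws on the same pool when it marks DNA breaks with poly(ADP-ribose). Resveratrol became known as a proposed activator of SIRT1, a claim that concerns the protein's activity and not the amount of its mRNA.

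Library totals ranged from 7034872 to 11735574 counts, and 15476 genes had enough counts to be tested. Mitochondrially encoded genes took 0.249% to 0.326% of the counts of libraries numbered 1 to 3 in each group (set A) and 0.448% to 0.775% of those numbered 4 to 6 (set B). No label names such a division, and fold changes are therefore also given within set A and set B. The squamous markers KRT14, KRT5, KRT6A, KRT17, SFN, TP63 and DSG3 were all present in the control, with mean levels per gene length from 24.3 to 1654 FPKM. The simple-epithelial markers EPCAM, KRT8 and KRT18 were present as well, at 86.8, 62.9 and 104 FPKM. The fibroblast, leukocyte and endothelial markers had means of 0.2 FPKM or less, except COL1A1 at 13.8 FPKM.

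In untreated cells PARP1 had by far the highest level per gene length, and SIRT4 the lowest. PARP1 stood at 48.9 ± 1.74 FPKM (SD, n = 6 here and throughout), NAMPT at 8.78 ± 0.381 FPKM and SIRT1 at 7.10 ± 0.440 FPKM. SIRT6 (6.61 ± 0.529 FPKM) and SIRT7 (6.09 ± 0.427 FPKM) followed. The nuclear sirtuins thus had the highest levels of the family, ahead of the cytosolic SIRT2 at 2.52 ± 0.139 FPKM and the mitochondrial SIRT5 and SIRT3 at 2.50 ± 0.368 and 2.30 ± 0.173 FPKM. NMNAT1 was low at 0.941 ± 0.106 FPKM. SIRT4 reached 0.230 ± 0.164 FPKM, which came from only 1 to 9 counts per library across all groups. In this order the library ranges of SIRT1 and SIRT6, of SIRT6 and SIRT7, of SIRT2 and SIRT5, and of SIRT5 and SIRT3 overlapped, while all other neighbours were separate. When counts were divided by the length of all exons in GENCODE 44, NAMPT moved from place 2 to place 5, SIRT1, SIRT6 and SIRT7 each moved up by 1, and SIRT3 (20.1 normalized counts per kilobase) passed SIRT5 (12.6), so these places depend on the gene length used.

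**Figure D1:**
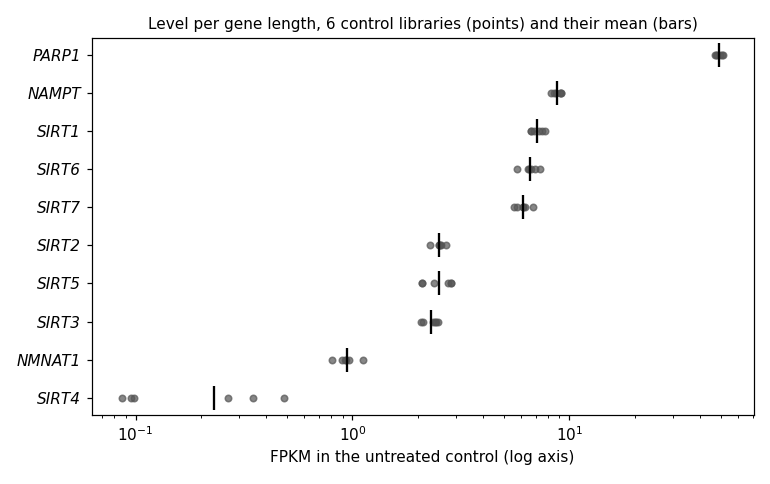
Level of each gene per gene length (FPKM, log axis) in the 6 untreated libraries, with points for libraries and bars for means. PARP1 is highest at 48.9 FPKM, the nuclear sirtuins SIRT1, SIRT6 and SIRT7 lie between 6.09 and 7.10 FPKM, and SIRT4 is lowest at 0.230 FPKM.

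A gene was called changed where the edgeR quasi-likelihood test gave a Benjamini-Hochberg adjusted p below 0.1 over all tested genes and an unadjusted p below 0.05. Resveratrol changed 6 of the 9 testable genes, NMNAT1, SIRT2, SIRT3, SIRT1 and SIRT7 upwards and PARP1 slightly downwards. After the combination the same 5 genes rose, and NAMPT fell slightly. None was called after EGCG alone. The count of 6 of 9 (66.7%) has to be read against a broad response: resveratrol changed 56.9% of all tested genes (28.9% higher, 28% lower) and the combination 59.8% (29.9% in each direction). The share was therefore close to the background, and SIRT4 had too few counts to enter the test. In RNA from whole cultures, fewer cells that express a gene and less of its RNA per cell cannot be told apart.

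Calls among the 9 genes were 5 higher and 1 lower in each comparison, and the median log2 fold change of the 9 genes was 0.15 after resveratrol and 0.18 after the combination, against 0.00 for all tested genes in both. This split depends on the scaling. When libraries were scaled by total count alone, 7 genes were higher and 0 lower in both comparisons, with SIRT5 and SIRT6 gained and PARP1 and NAMPT lost, while the median of all tested genes itself moved to 0.09 and 0.08. The higher and lower calls over all genes then became 6147 and 2857 after resveratrol and 6041 and 3311 after the combination.

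**Figure D2:**
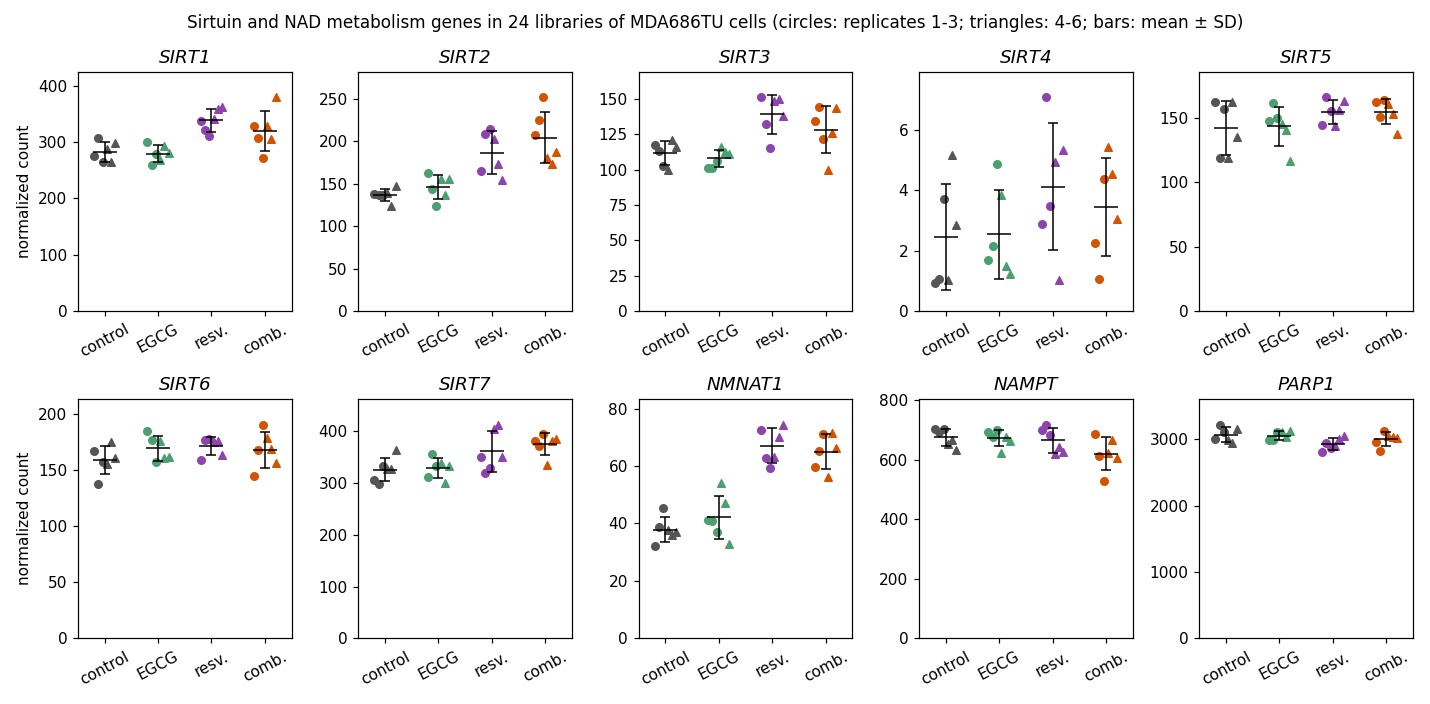
Normalized count (raw count divided by the library's size factor) of each gene in every library, with the group mean and SD. Circles are replicates 1 to 3 and triangles are replicates 4 to 6. NMNAT1 and SIRT2 are higher in all 12 libraries given resveratrol than in any control library, whereas SIRT5, SIRT6, NAMPT and PARP1 overlap in all groups.

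NMNAT1 (ENSG00000173614, GRCh38 chr1:9943428-9985501, plus strand), the nuclear NAD synthase, showed the largest change of the 10 genes. Its normalized count had a lowest, median and highest value of 32.3, 37.4 and 45.2 in the control and 33.0, 41.1 and 54.0 after EGCG. The corresponding values were 59.4, 66.7 and 74.4 after resveratrol and 56.3, 65.8 and 71.4 after the combination. All 12 libraries given resveratrol lay above all 12 without it. Mean normalized counts were 37.9 ± 4.26 in the control, 42.2 ± 7.46 after EGCG, 67.1 ± 6.09 after resveratrol and 65.0 ± 6.02 after the combination. The gene rose 1.77-fold after resveratrol (log2 fold change 0.82, SE 0.108, edgeR adjusted p = 5.43e-08) and 1.72-fold after the combination (0.78, SE 0.110, edgeR adjusted p = 1.68e-07). Non-overlapping groups as such were common, at 31.1% of tested genes after resveratrol and 31.9% after the combination. Its counts come from few reads, 27 to 81 per library. The 5 annotated NMNAT1 pseudogenes had no counts, and neither had the lncRNA that shares exon bases with it.

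NAMPT (ENSG00000105835, chr7:106248298-106285966, minus strand), which feeds NMNAT1, was not called higher in any comparison. The lowest, median and highest normalized counts of NAMPT were 633, 682 and 704 in the control and 625, 678 and 699.9 after EGCG. They were 619, 665 and 718 after resveratrol and 529, 618 and 688 after the combination. The groups overlapped throughout, and replicate 3 of the combination stood lowest. The log2 fold change after resveratrol was -0.02 with a 95% interval from -0.11 to 0.08, so a rise of the size of NMNAT1's lay outside the interval. After the combination NAMPT fell by 0.12 on the log2 scale (SE 0.0481, edgeR adjusted p = 0.0281). Without replicate 3 of the combination the difference was -0.08 and was no longer called (edgeR adjusted p = 0.120), and with libraries scaled by total count alone it was -0.04. Reads of NAMPT are uncertain, because the processed pseudogene NAMPTP1 on chromosome 10 held a mean of 314 counts per library and nearly identical copies can share reads. NAMPT and its pseudogenes summed gave -0.11 after the combination (edgeR adjusted p = 0.0579).

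The stretches of 250 bases before the RefSeq start sites (GRCh38.p14) are shown for the genes with the largest called changes, NMNAT1 and SIRT2, for SIRT1 as the sirtuin most often linked to resveratrol, and for NAMPT as the gene of the same route that was not called higher. Each is written 5′ to 3′ on the strand of the gene. Capitals mark matches to GCGTG, the core of the aryl hydrocarbon receptor element, to the E-box CACGTG or to TGACNNNGC, the core of the antioxidant response element, on either strand (CACGC is GCGTG read on the other strand).
NMNAT1, chr1:9943225-9943474, plus strand: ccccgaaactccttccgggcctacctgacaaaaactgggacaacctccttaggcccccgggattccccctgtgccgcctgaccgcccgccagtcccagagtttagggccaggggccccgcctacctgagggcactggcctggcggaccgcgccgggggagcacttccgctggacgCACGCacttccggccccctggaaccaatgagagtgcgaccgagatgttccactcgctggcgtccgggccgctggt
SIRT2, chr19:38899619-38899868, minus strand: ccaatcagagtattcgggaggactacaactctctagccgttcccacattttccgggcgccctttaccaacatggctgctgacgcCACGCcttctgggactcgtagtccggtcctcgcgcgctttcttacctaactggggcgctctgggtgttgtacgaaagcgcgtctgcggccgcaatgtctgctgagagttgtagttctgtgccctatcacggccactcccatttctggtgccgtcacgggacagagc
SIRT1, chr10:67884406-67884655, plus strand: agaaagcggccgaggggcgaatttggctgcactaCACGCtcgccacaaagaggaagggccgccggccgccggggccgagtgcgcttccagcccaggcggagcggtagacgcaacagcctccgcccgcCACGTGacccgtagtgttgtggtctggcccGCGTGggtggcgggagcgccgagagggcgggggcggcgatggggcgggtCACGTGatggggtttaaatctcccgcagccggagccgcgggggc
NAMPT, chr7:106284984-106285233, minus strand: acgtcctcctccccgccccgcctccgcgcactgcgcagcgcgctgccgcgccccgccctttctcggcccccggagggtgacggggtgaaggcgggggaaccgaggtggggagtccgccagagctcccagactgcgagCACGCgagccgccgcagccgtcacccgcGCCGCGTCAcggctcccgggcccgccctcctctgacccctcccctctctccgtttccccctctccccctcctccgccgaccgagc

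Windows of 250 bases before to 50 after the start were found for 9 of the 10 genes, all but SIRT7, and were searched on both strands. SIRT1 was the only one with the E-box CACGTG, which it held at 2 places, against 7.26% of all 35116 windows. NAMPT and SIRT6 held TGACNNNGC (13.3% of windows), SIRT5 and SIRT6 held the nuclear respiratory factor 1 motif (5.78% of windows), and 7 genes held GCGTG (36.5% of windows). All 4 sequences above hold GCGTG, that of NAMPT included, while SIRT3, which rose, had no match to any of the motifs. SIRT4, SIRT5 and SIRT6 had 2 windows each and thus more chances of a match.

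Among the nuclear sirtuins SIRT1 and SIRT7 rose after resveratrol, and SIRT6 was not called. SIRT1 (ENSG00000096717, chr10:67884656-67918390), a deacetylase of FOXO factors and histones, had lowest, median and highest normalized counts of 265, 281 and 307 in the control and 259, 279 and 299.5 after EGCG. After resveratrol they were 311, 339.7 and 362, and after the combination 272, 318 and 379. The resveratrol group lay wholly above the control, by a narrow margin, while the combination overlapped it. The rise was 1.20-fold after resveratrol (log2 fold change 0.26, SE 0.0595, edgeR adjusted p = 0.000341) and 1.13-fold after the combination (0.18, SE 0.0608, edgeR adjusted p = 0.0118).

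SIRT7 (ENSG00000187531, chr17:81911939-81921323), a nucleolar sirtuin linked to ribosomal RNA synthesis, had a median of 327 (lowest 298, highest 364) in the control and 334 (301 to 357) after EGCG. Its median was 350 (319 to 413) after resveratrol and 381 (335 to 395) after the combination. The groups overlapped, and replicates 4 and 5 of resveratrol stood highest. The log2 fold change was 0.15 after resveratrol (SE 0.0603, edgeR adjusted p = 0.0419) and 0.20 after the combination (SE 0.0607, edgeR adjusted p = 0.00437). The call after resveratrol was lost when control replicate 1 or 2 or resveratrol replicate 4 or 5 was left out, with values of 0.13, 0.12, 0.11 and 0.10. SIRT7 shares 105 exon bases with MAFG on the same strand, so some of its reads could belong to either gene.

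SIRT6 (ENSG00000077463, chr19:4174109-4182566), which acts in telomere and DNA repair, had a median of 159 (138 to 175) in the control, 169 (157 to 184) after EGCG, 175 (159 to 177) after resveratrol and 168 (144 to 190) after the combination. All groups overlapped. Its log2 fold change was 0.11 after resveratrol (95% interval -0.02 to 0.25) and 0.09 after the combination (-0.05 to 0.23). These intervals leave room for a change as large as that of SIRT7. Without control replicate 5 the value after resveratrol was 0.16 and was called (edgeR adjusted p = 0.0546).

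SIRT2 (ENSG00000068903, chr19:38878555-38899862, minus strand), a tubulin and histone deacetylase of the cytosol, had the largest log2 fold changes of the 6 sirtuins tested after resveratrol and after the combination. Lowest, median and highest normalized counts were 124, 137 and 147 in the control and 123, 149 and 162 after EGCG. After resveratrol they were 154, 188 and 215, and after the combination 173, 197.5 and 252. Every library given resveratrol, alone or combined, exceeded every control library, although resveratrol alone overlapped EGCG. SIRT2 rose 1.38-fold after resveratrol (log2 fold change 0.46, SE 0.0898, edgeR adjusted p = 4.91e-05) and 1.50-fold after the combination (0.59, SE 0.0899, edgeR adjusted p = 8.29e-07). SIRT2 shares 40 exon bases with NFKBIB on the other strand. The spread was wider after resveratrol and the combination, from an SD of 7.54 in the control to 25.4 and 30.0.

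Of the mitochondrial sirtuins SIRT3 rose. SIRT3 (ENSG00000142082, chr11:215030-236931), the main mitochondrial deacetylase, had a median normalized count of 115 (99.98 to 121) in the control, 109 (101 to 116) after EGCG, 143 (115 to 151) after resveratrol and 129.97 (99.7 to 144) after the combination. Its groups overlapped, in the resveratrol group through replicate 3 and in the combination group through replicate 4. The log2 fold change was 0.32 after resveratrol (SE 0.0811, edgeR adjusted p = 0.00128) and 0.20 after the combination (SE 0.0836, edgeR adjusted p = 0.0366). The combination call was lost without control replicate 4 (0.18) or without combination replicate 2 or 6 (0.17 in both). SIRT3 overlaps 84 exon bases of RIC8A on the other strand.

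SIRT5 (ENSG00000124523, chr6:13574227-13615158), a desuccinylase, was not called. Its medians were 146 in the control, 146 after EGCG, 156 after resveratrol and 157 after the combination. The lowest values were 118, 116, 143 and 138 in that order, and the control alone spread from 118 to 162. The log2 fold change was 0.12 with both resveratrol (95% interval -0.04 to 0.28) and the combination (-0.04 to 0.29). Without control replicate 5 it was 0.18 in both and was called (edgeR adjusted p = 0.0697 and 0.0727).

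SIRT4 (ENSG00000089163, chr12:120302316-120313249), a mitochondrial lipoamidase and ADP-ribosyltransferase, stood at mean normalized counts of 2.45 ± 1.75 in the control, 2.54 ± 1.47 after EGCG, 4.12 ± 2.11 after resveratrol and 3.45 ± 1.63 after the combination. The groups overlapped. Fitted with every gene that had at least 1 count, it gave a log2 fold change of 0.75 after resveratrol (95% interval -0.17 to 1.68, edgeR adjusted p = 0.282). A change of SIRT4 was not detectable at this depth.

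PARP1 (ENSG00000143799, chr1:226360210-226408154, minus strand) had the most reads, and its log2 fold changes were 0.07 or less in size in all comparisons. Lowest, median and highest normalized counts were 2938, 3054 and 3216 in the control and 2979, 3066 and 3121 after EGCG. They were 2800, 2914 and 3046 after resveratrol and 2826, 3022 and 3130 after the combination, and all groups overlapped. After resveratrol PARP1 fell by 0.07 on the log2 scale (SE 0.0296, edgeR adjusted p = 0.0631), a call that was lost with the sign kept in 16 of 36 alternative settings, and lost with the sign changed (0.02) in 1 more, scaling by total count alone. Left out alone, 11 libraries ended the call, with values from -0.05 to -0.06 (control replicates 2, 3, 5 and 6, EGCG replicates 1, 2, 4 and 6, and resveratrol replicates 1, 3 and 4). After the combination the log2 fold change was -0.03 with a 95% interval from -0.09 to 0.03 (0.06 and not called with scaling by total count alone).

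None of the 9 genes was called after EGCG on its own. The edgeR test called 0, with 0 at an unadjusted p below 0.05, and DESeq2 also called 0, against 1.76% of all tested genes called by edgeR. Log2 fold changes ran from -0.05 for SIRT3 to 0.16 for NMNAT1, and edgeR adjusted p-values were 0.705 or more. The interval of NMNAT1 was the widest, from -0.08 to 0.40, and that of PARP1 the narrowest, from -0.06 to 0.06. For SIRT1 it ran from -0.13 to 0.12.

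No gene was called for what EGCG added beside resveratrol either. Between the combination and resveratrol alone edgeR called 0 of the 9 genes, against 7.86% of all tested genes. NAMPT was the single gene with an unadjusted p below 0.05, with a log2 fold change of -0.11 (SE 0.0480, edgeR adjusted p = 0.219). DESeq2 called 0 as well, with 1 gene at an unadjusted p below 0.05. SIRT2 differed by 0.13 (95% interval -0.04 to 0.30) and SIRT1 by -0.08 (-0.20 to 0.04). The effect of resveratrol beside EGCG was also compared with its effect without EGCG in the same model. For this interaction edgeR called 0 of the 9 genes, with 0 at an unadjusted p below 0.05 and 0 by DESeq2, against 0.265% of all tested genes. The lowest adjusted p was that of NAMPT (log2 difference -0.11, edgeR adjusted p = 0.766). The interval for NMNAT1 ran from -0.51 to 0.12, so a smaller response to resveratrol beside EGCG remained within it.

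Resveratrol against control and the combination against EGCG share no library, and each gives the effect of resveratrol, without and with EGCG. Both come from the same fit, which shares the filter, the scaling and the estimate of the spread, so they are not fully independent. The second comparison called 6 of 9 genes, against 57.8% of all tested genes (28.7% higher and 29.1% lower, with non-overlapping groups in 27.5%). NMNAT1 rose by a log2 fold change of 0.63 beside EGCG (SE 0.108, edgeR adjusted p = 7.66e-06), against 0.82 without it. SIRT2 rose by 0.50 (SE 0.0893, edgeR adjusted p = 1.49e-05), against 0.46. These were also the genes whose combination and EGCG libraries did not overlap. SIRT3, SIRT1 and SIRT7 rose by 0.25, 0.19 and 0.20 beside EGCG, against 0.32, 0.26 and 0.15 without it, so that all 5 genes were called higher in both comparisons when all 6 replicates were used. NAMPT fell by 0.12 beside EGCG (edgeR adjusted p = 0.0319), a call that was lost without EGCG replicate 1, 2 or 6 (-0.09, -0.10 and -0.11), without combination replicate 3 (-0.08) or with its pseudogenes summed (-0.10). PARP1 was -0.02 and not called. With scaling by total count alone 6 genes were higher and 0 lower, SIRT5 at 0.18 being gained and NAMPT at -0.05 lost. Over all tested genes 5737 were then called higher and 3250 lower, and their median log2 fold change was 0.07.

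**Figure D3:**
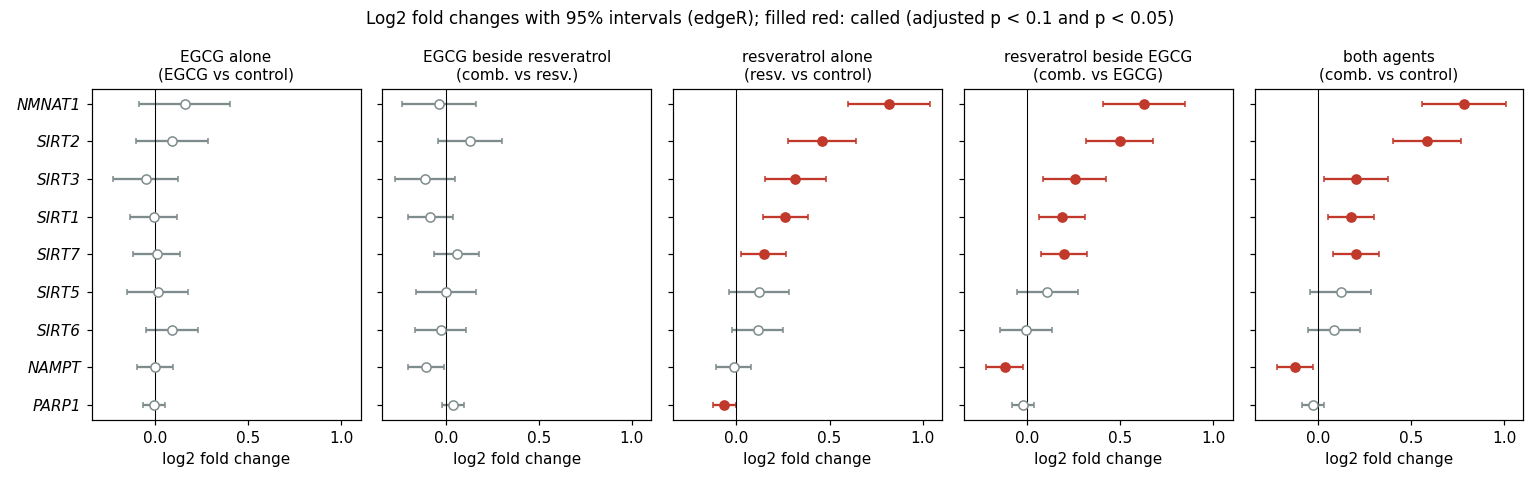
Log2 fold change with its 95% interval for the 9 testable genes in 5 comparisons. Filled red points are called. The panels for EGCG hold no filled point, and NMNAT1, SIRT2, SIRT3, SIRT1 and SIRT7 are filled and above 0 in all 3 panels for resveratrol, with NMNAT1 farthest at 0.82, 0.63 and 0.78.

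Several changes were not of one size in set A and set B, which also differ in mitochondrial share. NMNAT1 was called in both, at 0.74 in set A and 0.90 in set B after resveratrol, and 0.77 and 0.80 after the combination. SIRT2 after the combination was 0.75 in set A and 0.40 in set B, called in both. Its mean normalized count there was 228 against 180, while the control stood at 137 in both sets. SIRT1 was called after resveratrol in both sets (0.21 and 0.32), but after the combination in set B (0.25) and not in set A (0.10, edgeR adjusted p = 0.346). In the combination against EGCG SIRT1 was likewise lost in set A (0.11), and SIRT3 (0.13, edgeR adjusted p = 0.420) and NAMPT (-0.06, edgeR adjusted p = 0.402) were lost in set B. SIRT3 and SIRT7 after the combination were called in set A (0.27 and 0.30) and not in set B (0.14 and 0.11). SIRT7 after resveratrol was called in set B (0.20) and not in set A (0.10). NAMPT after the combination was -0.20 and called in set A, and -0.04 and not called in set B. PARP1 after resveratrol was -0.11 and called in set A, and -0.02 and not called in set B. Each set holds 3 libraries a group, the difference between the sets was not tested, and the part of the mitochondrial share in it was not tested.

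**Figure D4:**
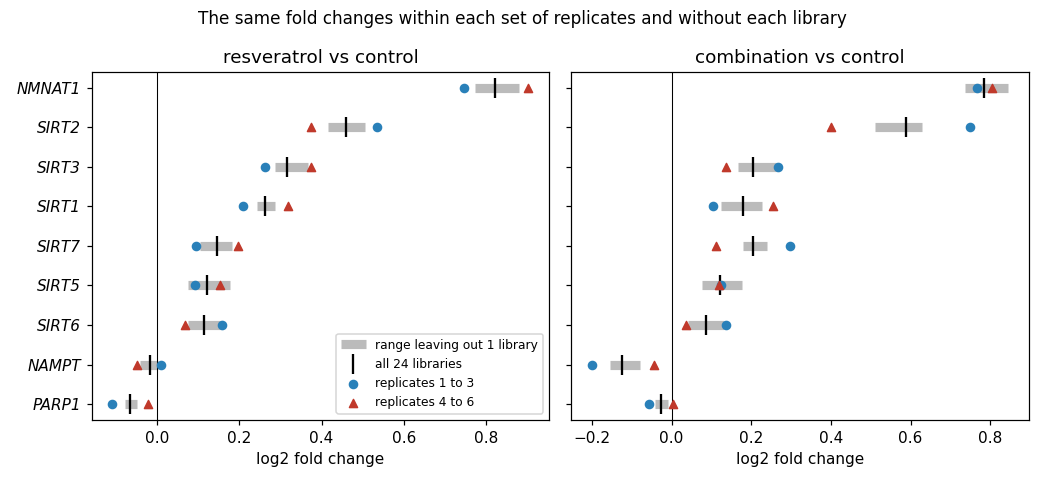
Log2 fold change of the 9 testable genes against control with all libraries (black bars), in set A (replicates 1 to 3, blue circles), in set B (replicates 4 to 6, red triangles), and the range when any 1 library is left out (grey). NMNAT1 stays between 0.74 and 0.90 throughout, whereas SIRT2 after the combination moves between 0.40 and 0.75.

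The genes whose patterns over the 24 libraries were most like those of SIRT1, NAMPT and NMNAT1 were sought among all 15476 tested genes, by the root-mean-square difference of centred log2 CPM values. For NMNAT1 they were CUL7 (0.126), GSTT2B (0.134), ZER1 (0.140), HDAC5 (0.141) and USP20 (0.151). The log2 fold changes of these genes after resveratrol lay between 0.67 and 0.75. For SIRT1 they were SLC30A6 (0.0740), UBR1 (0.0802), UBXN4 (0.0818), MARF1 (0.0835) and RESF1 (0.0864). NAMPT was most like TMED2 (0.0545), ENSG00000276850 (0.0555), PPP2R2A (0.0577), BNIP2 (0.0582) and PPP6C (0.0590). No other gene of the 10 was among them.

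Beyond the 10 genes, 100 genes of NAD metabolism and of the sirtuin network were looked up in 6 lists, of which 99 were matched (SOD2 was not) and 81 tested. Resveratrol changed 52 of them (31 higher, 21 lower, 64.2%), the combination 57 (35 higher, 22 lower, 70.4%) and EGCG 5 (4 higher, 1 lower, 6.17%). Over all tested genes the shares were 56.9%, 59.8% and 1.76%.

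Other genes of NAD synthesis moved in both directions. Of 14 tested, 6 rose and 2 fell after resveratrol, and 6 rose and 3 fell after the combination, with median log2 fold changes of 0.12 and 0.09. Called were 57.1% and 64.3%, beside 56.9% and 59.8% of all tested genes. With scaling by total count alone 7 rose and 1 fell in both. Over all tested genes 6147 then rose and 2857 fell after resveratrol, and 6041 rose and 3311 fell after the combination. Within the route from tryptophan, KYNU (kynureninase) rose from a mean normalized count of 7.46 ± 1.85 in the control to 17.6 ± 5.57 after resveratrol and 21.6 ± 4.86 after the combination, log2 fold changes of 1.20 and 1.52. The neighbouring enzyme KMO (kynurenine 3-monooxygenase) fell, by 0.97 and 0.53, from 32.4 ± 6.44 to 16.5 ± 2.56 and 22.2 ± 6.44. AFMID, the formamidase before them, rose by 0.38 and 0.55. It was also the single synthesis gene called after EGCG (0.30, edgeR adjusted p = 0.0464), 7.14% of the list beside 1.76% of all tested genes. Among other genes of the route, IDO1 and IDO2 had no counts, and TDO2, HAAO and QPRT were below the filter, with mean normalized counts of 0.342, 0.312 and 0.517 in the control. In the remaining branches NADSYN1, the NAD synthetase, rose by 0.30 and 0.34, and NMNAT3, the mitochondrial relative of NMNAT1, by 0.68 and 0.46. NMNAT3 had a mean of only 12.6 ± 3.22 normalized counts in the control (edgeR adjusted p = 0.0770 after the combination). Another relative, NMNAT2, was not called (0.13 and 0.10). NAPRT, which starts the route from nicotinic acid, fell by 0.17 and 0.14.

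Of 15 other NAD-consuming enzymes tested, 8 rose and 2 fell after resveratrol, and 9 rose and 2 fell after the combination. Their median log2 fold changes were 0.18 and 0.15. The shares called, 66.7% and 73.3%, stood beside 56.9% and 59.8% of all tested genes, of which 28.9% and 29.9% were higher. PARP10, a mono-ADP-ribosyltransferase, went from 198 ± 17.5 normalized counts in the control to 384 ± 14.5 after resveratrol and 416 ± 32.9 after the combination, log2 fold changes of 0.96 and 1.07. PARP14 rose by 0.78 and 0.96, PARP9 by 0.78 and 0.79, and PARP3 by 0.57 and 0.64. The nearest relative of PARP1, PARP2, was not called (-0.01 and 0.07), and neither was the tankyrase TNKS (0.04 and 0.08). CD38, the NAD glycohydrolase of the cell surface, fell by 0.37 and 0.42, and TIPARP by 0.27 and 0.33. Beside resveratrol EGCG added 0.17 to PARP14 and 0.18 to PARP8 (edgeR adjusted p = 0.0671 and 0.0718). PARP8 was not called after resveratrol alone (0.06). These calls were 13.3% of the list, beside 7.86% of all tested genes.

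Genes that remove ADP-ribose or work with PARP1 were mixed. Of 10 tested, 2 rose and 2 fell after resveratrol (6 and 1 with scaling by total count alone), and 4 rose and 3 fell after the combination. Called were thus 40% and 70%, beside 56.9% and 59.8% of all tested genes. Scaled by total count alone, 6147 of all tested genes rose and 2857 fell after resveratrol. LIG3, the DNA ligase that works with XRCC1 in single-strand break repair, fell by 0.30 and 0.41. ADPRH, an ADP-ribosylarginine hydrolase, rose by 0.64 and 0.70 from a mean of 8.29 normalized counts. PARG, which degrades poly(ADP-ribose), fell by 0.18 after the combination (-0.09 after resveratrol, not called), while ADPRS and OARD1, which cleave the last ADP-ribose, rose after the combination by 0.24 and 0.21. HPF1, the cofactor that directs PARP1 to serine, was lower in the combination than after resveratrol alone (-0.24, edgeR adjusted p = 0.0513). It was the single gene of the list called there (10%, beside 7.86% of all tested genes). Against control HPF1 was not called after resveratrol (0.10) or the combination (-0.14).

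Of 5 tested genes that break down nicotinamide or NAD, NT5E and AOX1 fell and NT5C2 rose. The share called was 60% after resveratrol and after the combination, beside 56.9% and 59.8% of all tested genes. NT5E, the surface nucleotidase CD73, fell from 629 ± 35.6 normalized counts to 371 ± 22.4 after resveratrol and 366 ± 22.0 after the combination, by 0.75 and 0.78 on the log2 scale. AOX1, an oxidase of methylated nicotinamide, fell by 0.78 and 0.82. NNMT, which methylates nicotinamide, stood at 19.4 ± 4.92 normalized counts in the control and was not called (-0.01 and 0.07).

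Of 11 tested regulators of sirtuins, 7 fell and 2 rose after resveratrol (5 and 3 with scaling by total count alone), where 28% of all tested genes fell and 28.9% rose. After the combination 6 fell and 2 rose (5 and 2 with scaling by total count alone), beside 29.9% of all tested genes in each direction. The median log2 fold change of the list was -0.17 in both comparisons. Scaled by total count alone, 2857 of all tested genes fell and 6147 rose after resveratrol, and 3311 fell and 6041 rose after the combination. HIC1, a repressor of SIRT1 transcription, fell by 0.39 after resveratrol from a mean of 30.2 ± 3.15 normalized counts, and was not called after the combination (-0.17). The corepressors CTBP2 and CTBP1, which act with HIC1, fell by 0.35 and 0.22 after resveratrol and by 0.36 and 0.29 after the combination. CCAR2, an inhibitor of SIRT1 protein, fell by 0.10 after resveratrol and was at -0.08 after the combination, not called. Some genes known to favour SIRT1 fell as well. RPS19BP1, a SIRT1-binding activator, fell by 0.27 and 0.22, and ELAVL1, which binds SIRT1 mRNA, by 0.22 and 0.21. The 2 genes that rose were SETD7 (0.15 and 0.11) and HUWE1 (0.13 and 0.13). USP22 was not called (-0.02 and -0.03), and SENP1 was called only after the combination (-0.07 and -0.13). KDM1A, a histone demethylase found with SIRT1, fell by 0.17 and 0.27. It was the gene of this list called after EGCG (-0.11, edgeR adjusted p = 0.0467), 9.09% beside 1.76% of all tested genes.

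Known substrates and effectors of sirtuins included the largest changes of all lists. Of 26 tested, 12 rose and 6 fell after resveratrol (18 and 4 with scaling by total count alone) and 13 rose and 6 fell after the combination. The shares called were 69.2% and 73.1%, beside 56.9% and 59.8% of all tested genes. Scaled by total count alone, 6147 of all tested genes rose and 2857 fell after resveratrol. ACSS2, a cytosolic acetyl-CoA synthetase that SIRT1 deacetylates, rose from 334 ± 25.2 normalized counts to 887 ± 20.1 after resveratrol and 1079 ± 53.0 after the combination, log2 fold changes of 1.41 and 1.69. IDH2, a SIRT3 substrate in mitochondria, rose by 0.73 and 0.89. FOXO1 rose by 0.57 after resveratrol and 0.31 after the combination. Between the combination and resveratrol alone 4 genes were called (15.4%, beside 7.86% of all tested genes), 2 higher and 2 lower. TXNIP was higher in the combination by 0.35 and ACSS2 by 0.28 (edgeR adjusted p = 8.55e-10 and 1.02e-05). FOXO1 was lower by 0.27 and POLR1B by 0.12 (edgeR adjusted p = 0.0711 and 0.0423). FOXO4 had a mean of only 11.7 ± 3.79 normalized counts in the control. It was called after the combination (0.72) and not after resveratrol (0.34) or EGCG (0.60). Its difference between the combination and resveratrol alone was 0.38 and not called (edgeR adjusted p = 0.291). PPARGC1A, the mitochondrial coactivator deacetylated by SIRT1, was below the filter, and its relative PPARGC1B fell by 0.23 and 0.43. After EGCG 3 genes of this list were called (11.5%, beside 1.76% of all tested genes), all higher, among them ACSS2 (0.23) and TXNIP (0.28). The mRNA values say nothing of the acetylation of any of these proteins, which was not measured.

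**Figure D5:**
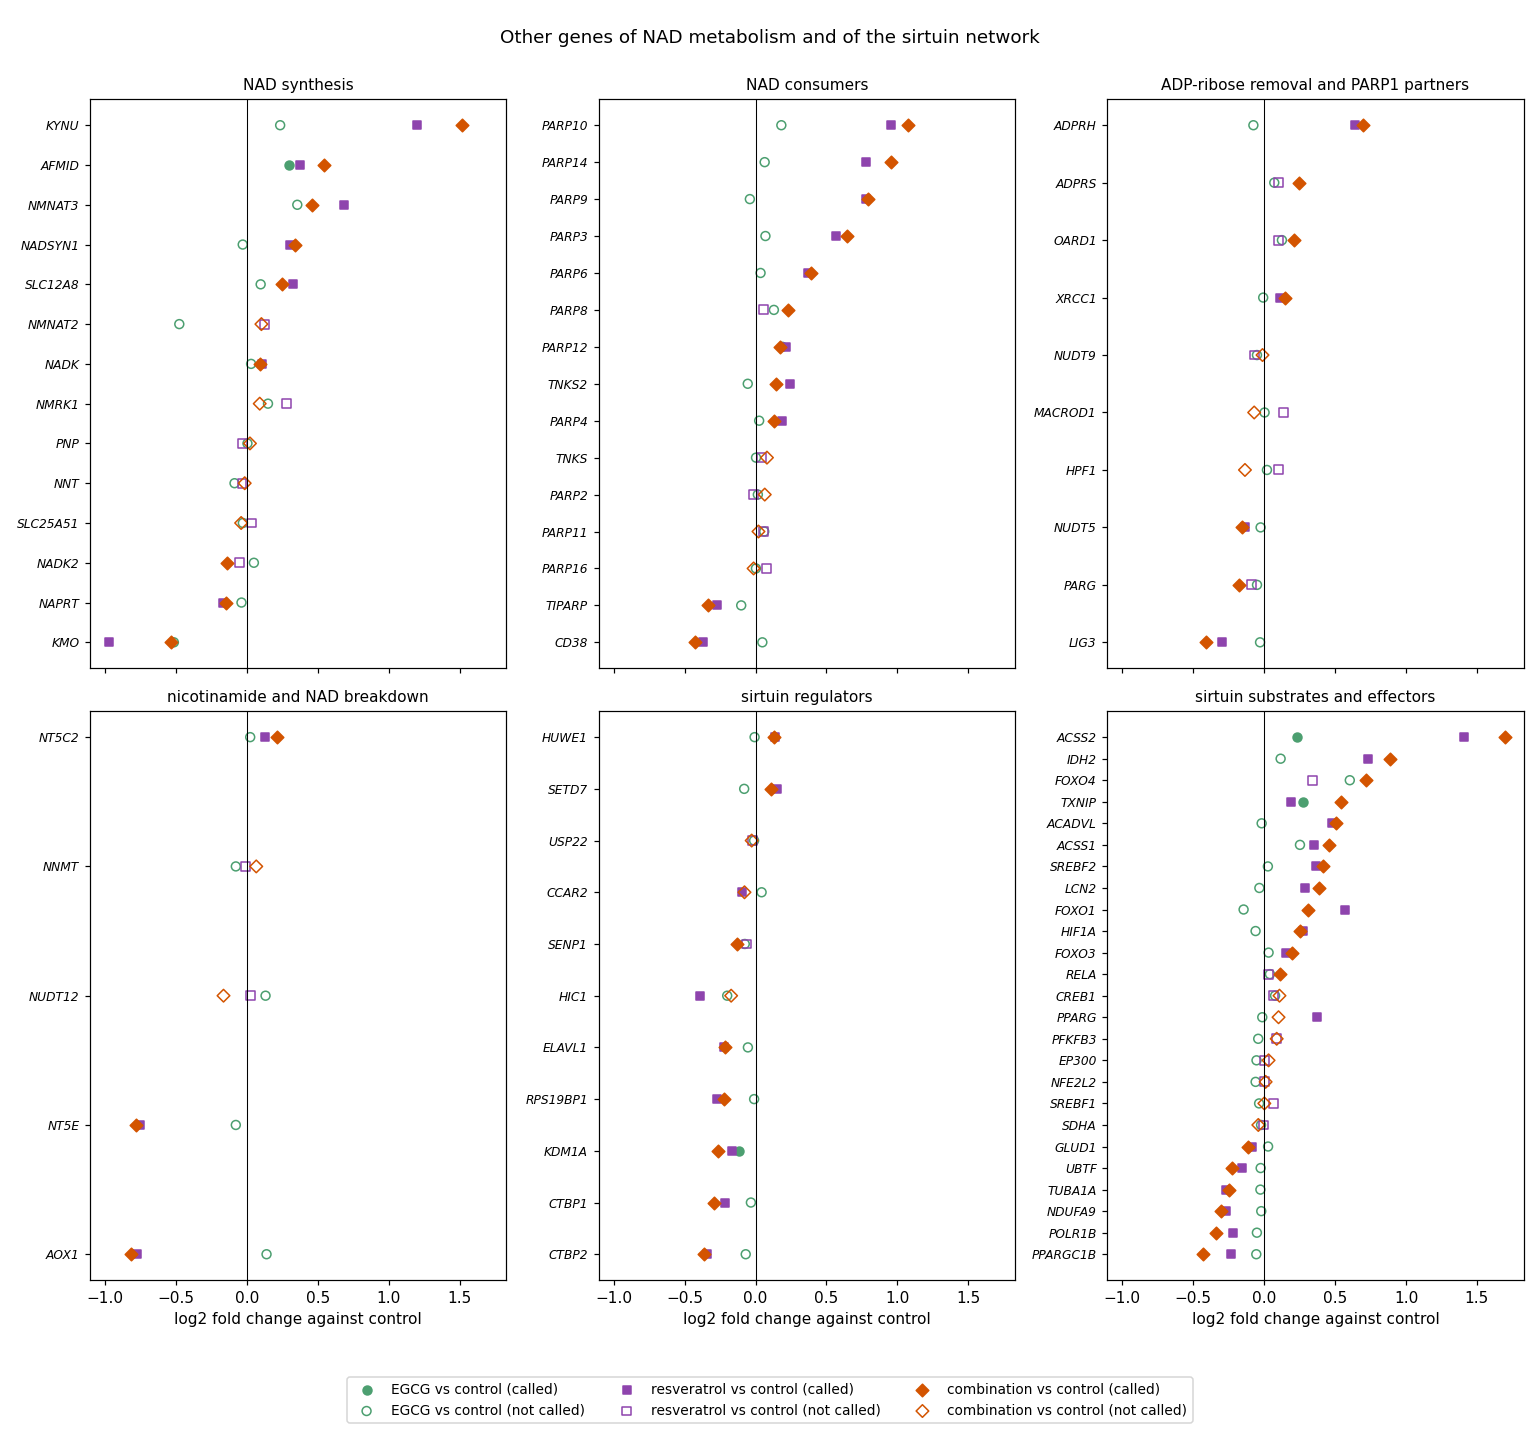
Log2 fold change against control of 80 of the 81 tested genes in the 6 lists, for EGCG (green circles), resveratrol (purple squares) and the combination (orange diamonds). Filled symbols are called. ACSS2 (1.41 and 1.69), KYNU (1.20 and 1.52) and PARP10 (0.96 and 1.07) rise most, and KMO, NT5E and AOX1 fall most after resveratrol.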

How the data were processed

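Total RNA in 24 samples of MDA686TU cells was sequenced by the authors from stranded mRNA libraries as paired reads, which were trimmed with Trimmomatic 0.36 and aligned to GRCh38 with HISAT2 2.0.4. The authors deposited raw counts per gene. They also deposited normalized counts, a signal per gene that was checked to equal the raw count divided by 1 size factor per library, and FPKM values, checked to be proportional, gene by gene, to the normalized counts. The counting program and its strand setting are not given in the sources used here. Groups came from the labels.

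Raw counts were tested with edgeR 4.0.16 (R 4.3.3) by the quasi-likelihood test on all 24 libraries, with TMM scaling and the filter on low counts of filterByExpr. SE is the log2 fold change over the root of F. DESeq2 1.42.0, other scalings and filters, a replicate block, both sets of replicates and leaving out each library were alternatives, and the sum of pseudogenes with their parent was added after seeing the data. The tests were also run on simulated data in which few genes changed, in the resveratrol group alone and equally in both directions. Such data cannot probe the choice of scaling under a response as broad as the one seen here. Normalized counts are shown per library and FPKM compares levels between genes. Fold changes are on the scale of the fit. Counting error covers only sampling of reads and is included in the SD.

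The 10 genes and the 6 lists were chosen with earlier results of these data known. From each list the text names the 5 genes with the largest called changes, every gene called with EGCG, and genes that the description needs. Symbols, positions and overlaps are from GENCODE 44, promoters from RefSeq (GRCh38.p14). The values of 1 listed gene are not reported here, in the text or in the plot of the lists.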

Additional observations from a re-analysis of the deposited data

How the results depend on the processing

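The count of called genes stayed within 1.5 times its value in every comparison and alternative, except for the combination in replicates 4 to 6 alone (3 genes) and the combination against resveratrol in replicates 1 to 3 alone (1 gene, NAMPT at -0.21). Over all genes, 7705 of 15442 tested were called in the former setting and 816 of 15691 in the latter. With 1 library left out, the count ranged from 4 to 7 with resveratrol, 5 to 7 with the combination, 5 to 6 for the combination against EGCG, and 0 to 0 for EGCG, for the combination against resveratrol and for the interaction. Of all 15547 to 15577 genes then tested, 8488 to 9044, 9032 to 9295 and 8645 to 8983 were called in the first 3 of these comparisons. In the last 3, the calls over all genes ranged from 192 to 382, 899 to 1242 and 33 to 59. Among called changes 1 direction reversed: PARP1 with resveratrol was 0.023 with scaling by total count alone, and the cause was not tested. Values not called changed sign as well, among them NAMPT with resveratrol (0.07) and PARP1 with the combination (0.06) under that scaling, and SIRT7 in the combination against resveratrol (-0.09) in replicates 4 to 6 alone. The calls of NMNAT1 and SIRT2 held under all 36 alternatives in each of the 3 resveratrol comparisons, with ranges of 0.74 to 0.91 and 0.37 to 0.55 with resveratrol. Those of SIRT1 and SIRT3 with resveratrol held under all of them as well, at 0.21 to 0.35 and 0.26 to 0.40. The EGCG calls of AFMID and KDM1A were lost in replicates 1 to 3 alone, in replicates 4 to 6 alone, under the filter of 1 count, and without control replicate 6 or EGCG replicate 1, that of AFMID also without control replicate 1 and that of KDM1A also without control replicate 3. SIRT6 after resveratrol, not called otherwise, was called at 0.20 with scaling by total count alone, at 0.14 with at least 10 counts in every library, and at 0.16 without control replicate 5. Correlations of the deviations of same-numbered libraries were weak, from -0.01 to 0.13 with a median of 0.049 (2 of 36 above 0.1), beside medians of 0.028 for other numbers of the same set and -0.041 across sets. Best correlated with their own number were 11 of 24 libraries. The count expected from the division into set A and set B alone was not worked out, and the labels do not describe pairing by number. With the replicate number as a block the called genes numbered 0, 6, 6, 0, 6 and 0 for EGCG, resveratrol, the combination, the combination against resveratrol, the combination against EGCG and the interaction, as without it, while calls over all genes rose from 273 to 370 with EGCG and from 41 to 85 for the interaction. Depth limits SIRT4 and, less so, NMNAT1.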
